A study of Mus musculus with 21 samples.

Results

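The genes described here are the chaperones of the cytosol and the mitochondria, in CD4+ T cells taken after antigen encounter. A list of 37 gene symbols of known chaperones was matched by name to the gene tables. Of these, 36 were found and Hspa14 was not, out of 47643 genes in the count table, of which 15300 passed a filter of 10 counts summed over the samples. The members comprised 3 of the HSP90 family, 6 of the HSP70 and HSP110 family, both parts of the mitochondrial chaperonin, 8 subunits of the TRiC chaperonin, 6 prefoldin subunits, 6 J-domain proteins, 4 HSP90 co-chaperones and the transcription factor Hsf1.

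RNA came from splenic CD4+ T cells of Tg4 Tiger Nr4a3-Tocky mice. All mice, controls included, carried the same alleles. Through the Tg4 transgene most T cells bear a single receptor, which recognises a peptide of myelin basic protein, the Tiger allele reports Il10 with GFP, and the Nr4a3-Tocky transgene makes a Timer protein, blue when new and red once mature, under the regulatory sequence of Nr4a3, a gene switched on by receptor signalling. Controls were untreated. The 6 other groups received the [4Y] form of the peptide under the skin in saline, at 0.8 µg or 80 µg, and spleens were taken 4 h, 12 h or 24 h later. Each of the 7 groups held 3 mice, giving 21 libraries. The sorting gate was Blue+Red- for the 4 h groups, Blue+Red+ for those of 12 h and Blue-Red+ for those of 24 h. Time and gate therefore cannot be told apart, and the gate of the control cells and the age of the mice are not given in the sources used here. Both sexes were used.

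Chaperones bind proteins that are not yet folded, or that have lost their fold, and release them in cycles driven by ATP. HSP70 proteins, guided by J-domain partners, bind short stretches of new chains, HSP90 and its co-chaperones act late on clients such as kinases and receptors, and TRiC encloses actin, tubulin and other proteins that prefoldin can hand to it. The mitochondrial chaperonin folds imported proteins in the matrix. Hsf1 drives the heat shock response, in which the stress-inducible members rise together. Resting T cells are small and make little protein, and after receptor engagement they grow and divide.

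Library totals ranged from 2352800 to 6244279 counts, with a median of 3571896. Values below are counts divided by DESeq2 size factors (normalised counts), and the levels of different genes are not compared. In the 12 h groups, the replicate 3 library of each dose stood apart from the other 2 in a small share of genes. Of 8762 genes whose mean was 20 normalised counts or more, 26 (0.297%) were over 2 times the mean of the other 2 libraries in replicate 3 of both doses, among them Hspa1b, Dnajb1 and the Y-linked Kdm5d, Uty, Ddx3y and Eif2s3y, and 53 (0.605%) were under 0.5 times. The 12 h changes of Hsp90aa1, Hspa8, Hspa1b, Hsph1, Dnaja1, Dnajb1, Stip1 and Hsf1 are given below with and without these libraries. The T cell marker list (Cd3e, Cd3g, Cd3d, Cd4, Trac, Trbc2, Thy1 and Lck) summed to 1610 to 3730 CPM (counts scaled to a common library total) and every gene of it was detected. It was highest in the controls (3510 to 3730 CPM), at 2000 to 2160 CPM with 0.8 µg and 1610 to 1700 CPM with 80 µg at 4 h, at 1630 to 1750 CPM and 1760 to 1900 CPM at 12 h, and at 2930 to 3310 CPM and 3220 to 3510 CPM at 24 h. CD8 markers summed to 31.1 to 47.6 CPM in the controls, to 15.2 to 30.9, 43.6 to 51.3 and 34.3 to 40.9 CPM at 4 h, 12 h and 24 h with 0.8 µg, and to 20.3 to 22.8, 13.1 to 22.7 and 20.1 to 28.8 CPM with 80 µg, so that the doses did not overlap at 12 h and 24 h. Myeloid markers summed to 1.38 to 32 CPM, dendritic cell markers to at most 2.46 CPM, NK markers to at most 5.01 CPM, platelet markers to at most 1.06 CPM and plasma cell markers to at most 1.7 CPM. B cell markers summed to 34.9 to 71.7 CPM in the controls. They summed to 10.3 to 13.1 CPM at 4 h, 1.45 to 14.8 CPM at 12 h and 5.28 to 13.3 CPM at 24 h with 80 µg, and to 12.6 to 29.5 CPM, 6.06 to 39.6 CPM and 13.6 to 25.1 CPM with 0.8 µg, so that only the 12 h group of 0.8 µg overlapped the controls. Erythroid markers ranged from 3.23 to 171 CPM. The part of these cells, or of the lower marker sums, in the results was not tested.

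Promoter windows were read for 2 neighbouring pairs among the members. RefSeq windows of 300 bases, from 250 before to 50 after a start site (GRCm38.p6), were matched for 29 of the 37 members, in 39 windows. Hsp90aa1, Hsp90ab1, Hspa8, Hspa9, Cct4, Pfdn1, Dnajc2 and Hsf1 had none. Each window is printed 5′ to 3′ on its own strand. Hspe1 is shown because it shares a start region with Hspd1, the member with the largest change apart from the low-count Hspa1b, and capitals mark the 50 bases from its start site on. Hspa1a and Hspa1b are shown as the pair that appeared in few libraries, and capitals mark the 4 bases at which the pair differs.

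Hspe1, chr1:55087898-55088197, plus strand: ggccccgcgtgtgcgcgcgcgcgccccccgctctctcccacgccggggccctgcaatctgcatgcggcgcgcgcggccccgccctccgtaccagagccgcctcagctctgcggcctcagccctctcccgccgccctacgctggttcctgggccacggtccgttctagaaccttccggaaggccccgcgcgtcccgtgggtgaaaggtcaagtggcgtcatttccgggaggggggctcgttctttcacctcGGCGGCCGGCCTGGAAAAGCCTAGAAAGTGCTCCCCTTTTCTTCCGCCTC

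Hspa1a, chr17:34972107-34972406, minus strand: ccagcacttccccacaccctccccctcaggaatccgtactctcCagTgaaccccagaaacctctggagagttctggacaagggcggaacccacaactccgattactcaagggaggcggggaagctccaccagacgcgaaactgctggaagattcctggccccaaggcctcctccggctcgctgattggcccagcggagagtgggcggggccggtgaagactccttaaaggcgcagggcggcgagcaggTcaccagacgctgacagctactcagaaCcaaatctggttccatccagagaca

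Hspa1b, chr17:34959189-34959488, minus strand: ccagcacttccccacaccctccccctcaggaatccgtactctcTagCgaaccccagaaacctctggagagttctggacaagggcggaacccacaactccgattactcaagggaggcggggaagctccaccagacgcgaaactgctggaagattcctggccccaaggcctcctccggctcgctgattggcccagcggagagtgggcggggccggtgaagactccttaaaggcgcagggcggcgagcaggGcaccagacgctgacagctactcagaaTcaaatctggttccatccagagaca

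Of the 300 bases of the Hspe1 window, 285 also lie in a minus-strand window of Hspd1 (chr1:55087883-55088182). Another minus-strand window of Hspd1 (chr1:55088194-55088493) shares 4 bases with it. By the former window the pair reads outward from the same stretch of DNA. By the latter the start of Hspd1 lies beyond that of Hspe1, so that the genes overlap. The windows of Hspa1a and Hspa1b were identical at 296 of 300 aligned bases (98.7%). The last 400 bases of their transcripts, where 3′ reads fall, shared 0 of 351 words of 50 bases, so reads at the 3′ ends can be told apart. Of the 36 members, 17 share exon bases with another annotated gene (GENCODE, GRCm38), 7 on the same strand and 14 on the opposite strand. The strand setting of the authors' counting is not given in the sources used here, and without it reads of such pairs cannot be assigned to either gene with certainty.

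**Figure D1:**
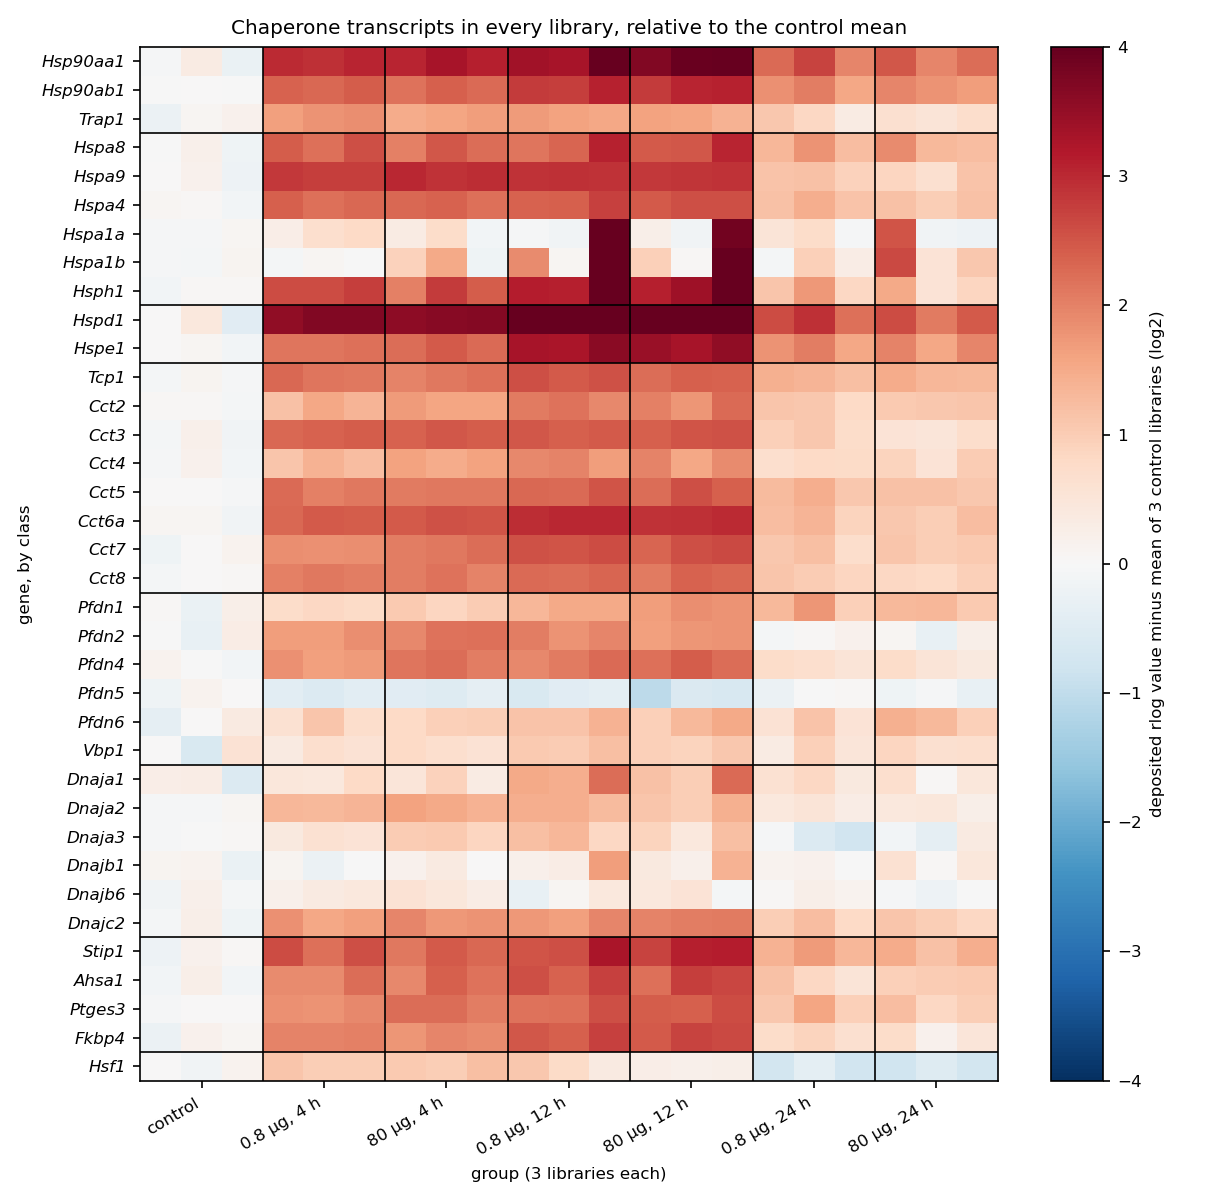
Heat map of the 36 chaperone genes (rows, by class) in the 21 libraries (columns, by group). Colour is the deposited rlog value (a log2 scale) minus the mean of the 3 controls, with the colour scale ending at -4 and 4. Most rows are highest in the 12 h libraries, and the Pfdn5 row lies at or below the control level in most libraries.

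The immunised groups were set against the untreated controls first, to ask how far the chaperone genes moved after antigen at each dose and time. By the 2-fold rule every call was higher than control. With 0.8 µg, 26 of 35 tested members rose at 4 h, 31 at 12 h and 18 at 24 h. With 80 µg, 28 rose at 4 h, 29 at 12 h and 17 at 24 h. Many calls at 24 h lay near the 2-fold threshold, and library totals in place of size factors left 13 with 0.8 µg and 9 with 80 µg. The calls lost with 80 µg were those of Hspa4, Hsph1, Cct2, Cct5, Cct6a, Cct7, Ahsa1 and Ptges3 (0.79 to 0.92 on the log2 scale), and with 0.8 µg those of Hspa9, Cct2, Cct7, Cct8 and Dnajc2 (0.87 to 0.95). Hspa1a had too few counts for an adjusted p and was not tested. A gene was called when DESeq2's adjusted p was under 0.05 and the shrunken log2 fold change was beyond 1, that is 2-fold. Over all genes tested, the shares called higher were 17.3% at 4 h, 17.2% at 12 h and 11.5% at 24 h with 0.8 µg, and 18.4%, 17.8% and 12.3% with 80 µg.

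None of the 35 members was called lower than control in any of the 6 comparisons by DESeq2, and edgeR also called 0. Over all genes, 23.4%, 20.5% and 5.84% were called lower at 4 h, 12 h and 24 h with 0.8 µg, and 25.1%, 20.1% and 7.91% with 80 µg. At an unadjusted p under 0.05, 1 member was lower in each comparison, Pfdn5 at 4 h and 12 h and Hsf1 at 24 h, beside 31.4%, 30.3% and 19.3% of all genes with 0.8 µg and 33%, 29.7% and 20.8% with 80 µg. The median log2 fold change of the 34 tested members other than Hspa1b was 1.88, 2.34 and 1.01 at 4 h, 12 h and 24 h with 0.8 µg and 2.14, 2.37 and 0.99 with 80 µg. The medians over all genes were -0.13, -0.11 and 0 with 0.8 µg and -0.15, -0.11 and 0 with 80 µg. All 6 comparisons share the 3 control libraries.

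The members together took 0.388% ± 0.021 (SD, n = 3) of the counts of the control libraries. Their share was 1.55% ± 0.0453 with 0.8 µg and 1.58% ± 0.0629 with 80 µg at 4 h, and 2.43% ± 0.128 and 2.49% ± 0.266 at 12 h. By 24 h the share was 0.925% ± 0.105 and 0.835% ± 0.0597. At each time the immunised groups lay above the controls by more than the spread between libraries, and the doses lay close to each other. In bulk RNA, a change in the make-up of the sorted cells and a change in RNA per cell cannot be told apart.

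Of the 36 members, 29 had their highest group mean at 12 h and 6 at 4 h. The latter were Trap1, Hspa9, Pfdn2, Dnaja2, Dnajb6 and Hsf1. Without both replicate 3 libraries of 12 h, 26 were highest at 12 h, 5 at 4 h and 4 at 24 h (Hspa1a, Hspa1b, Dnajb1 and Pfdn6). Pfdn5 was highest in the controls, and 30 members had their lowest mean there. Altogether 14 members were called higher in all 6 comparisons (Hsp90aa1, Hsp90ab1, Hspa8, Hspa4, Hsph1, Hspd1, Hspe1, Tcp1, Cct2, Cct5, Cct6a, Cct7, Stip1 and Ptges3). Over the 12628 genes tested in all 6, 3.42% were. Under library totals 7 of the 14 members kept all 6 calls, and Hspa4, Hsph1, Cct2, Cct5, Cct6a, Cct7 and Ptges3 did not. Leaving out 1 library at a time gave 11 to 16 members, and the members that lost a call were Hsph1, Cct2, Cct7 and Ptges3. Hspa1a, Pfdn5, Dnajb1 and Dnajb6 were called in none.

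**Figure D2:**
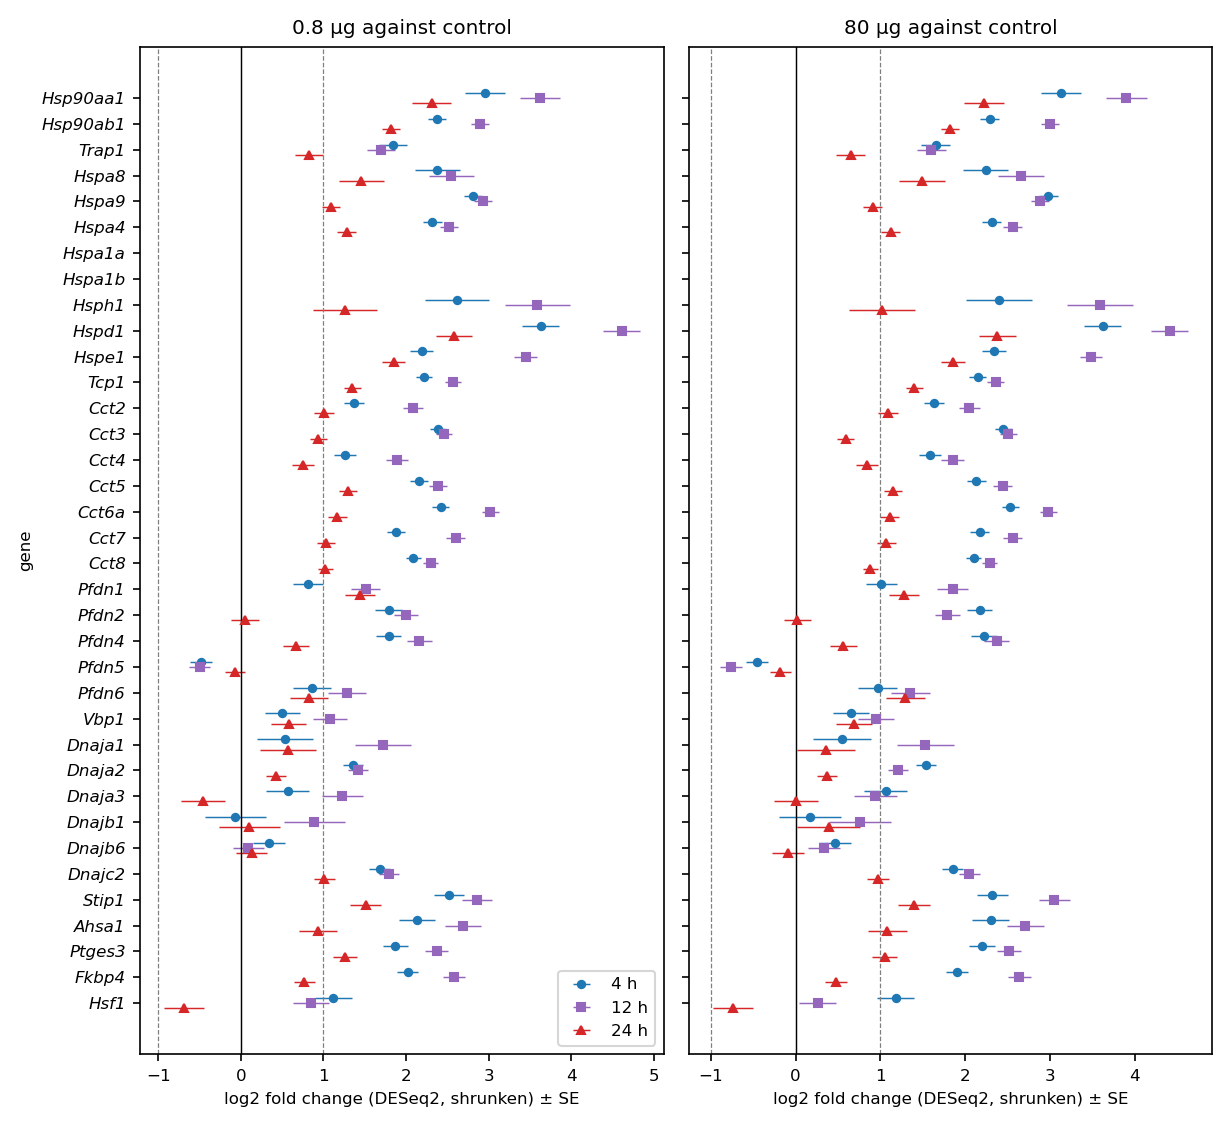
Shrunken log2 fold change from control of each tested member except Hspa1b (points), by class, in the 6 immunised groups; Hspa1a and Hspa1b are left out because of their low counts. Hspd1 is highest in every group, and the points of 24 h lie below those of 12 h for nearly all members.

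The mitochondrial chaperonin showed the largest change of the classes, the low-count Hspa1b aside. Hspd1 encodes HSP60, the barrel, and Hspe1 encodes HSP10, its lid. They are neighbours on chromosome 1, Hspd1 on the minus strand (55077835 to 55088243) and Hspe1 on the plus strand (55088132 to 55091307), and their first exons overlap on opposite strands. Both rose in all 6 comparisons.

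Hspd1 had 179, 241 and 127 normalised counts in the controls. At 4 h it had 2183, 2455 and 2429 with 0.8 µg and 2259, 2360 and 2388 with 80 µg. At 12 h it had 4315, 4205 and 5514, and 3592, 3871 and 4702. The 12 h libraries were all above the 4 h libraries, and both were far above the controls. At 24 h Hspd1 had 1122, 1399 and 857 with 0.8 µg and 1142, 774 and 1015 with 80 µg, still without overlap with the controls. The log2 fold changes from control were 3.63 (SE 0.22), 4.61 (SE 0.22) and 2.58 (SE 0.22) at 4 h, 12 h and 24 h with 0.8 µg, the largest being a 24.4-fold rise (adjusted p = 5.28e-95). With 80 µg they were 3.62, 4.41 and 2.38, each with an SE of 0.22.

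Hspe1 rose by 2.19 (SE 0.14), 3.45 (SE 0.14) and 1.85 (SE 0.14) on the log2 scale with 0.8 µg and by 2.34 (SE 0.14), 3.48 (SE 0.13) and 1.86 (SE 0.14) with 80 µg. The log2 ratio of Hspd1 to Hspe1 within a library was -0.58 ± 0.37 (SD, n = 3) in the controls, 0.95 ± 0.08 and 0.79 ± 0.11 at 4 h, 0.67 ± 0.03 and 0.43 ± 0.15 at 12 h, and 0.22 ± 0.1 and 0 ± 0.07 at 24 h (0.8 µg and 80 µg). The pair thus did not move in a constant ratio, and this change of ratio was not tested. A pseudogene, Hspd1-ps3, held 705 counts over all libraries, 1.41% of the 49910 of Hspd1.

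All 3 HSP90 genes rose at 4 h and 12 h, and Hsp90aa1 and Hsp90ab1 also at 24 h. Hsp90aa1 encodes the inducible cytosolic form, Hsp90ab1 the constitutive one, and Trap1 the mitochondrial one. Hsp90aa1 (chromosome 12, 110690605 to 110702728, minus strand) had 490, 641 and 414 normalised counts in the controls. With 0.8 µg it had 4150, 3980 and 4320 at 4 h, 5424, 5160 and 9142 at 12 h, and 2491, 3377 and 2010 at 24 h. With 80 µg it had 4321, 5172 and 4469 at 4 h, 6870, 8208 and 8986 at 12 h, and 2933, 1994 and 2466 at 24 h. No immunised library came near the controls. The highest value, 9142, was in the 12 h replicate 3 library of the 0.8 µg group. The log2 fold changes were 2.96, 3.62 and 2.31 with 0.8 µg and 3.13, 3.9 and 2.22 with 80 µg (SE 0.24 each), a rise of 14.9-fold with 80 µg at 12 h (adjusted p = 4.69e-57). The values at 12 h were 3.33 and 3.83 without both replicate 3 libraries of 12 h, and the calls were kept.

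Hsp90ab1 rose by 2.38, 2.9 and 1.82 with 0.8 µg and by 2.29, 3 and 1.82 with 80 µg (SE 0.11 each). Its 3 controls lay between 3642 and 3665 normalised counts. Trap1 rose by 1.84 (SE 0.17) at 4 h and 1.7 at 12 h with 0.8 µg, and by 1.65 and 1.6 with 80 µg. At 24 h the values of Trap1 were 0.82 and 0.65, significant (adjusted p = 1.42e-05 and 0.000655) but under the 2-fold threshold.

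Within the HSP70 and HSP110 family, Hspa8, Hspa9, Hspa4 and Hsph1 rose, and Hspa1a and Hspa1b were seen in few libraries. Hspa8 encodes the constitutive cytosolic HSC70, Hspa9 the mitochondrial HSP70 and Hspa4 and Hsph1 the HSP110 proteins, which exchange the nucleotide of HSP70. All 4 of these rose at 4 h and 12 h with both doses. At 24 h, Hspa8, Hspa4 and Hsph1 rose with both doses, and Hspa9 with 0.8 µg (1.09, SE 0.11) while it stood at 0.91 (SE 0.11) with 80 µg.

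Hsph1 (chromosome 5, 149614287 to 149636376, minus strand) had 155, 170 and 171 normalised counts in the controls. The 0.8 µg libraries had 1057, 1068 and 1175 at 4 h, 1527, 1488 and 3607 at 12 h, and 363, 574 and 298 at 24 h. The 80 µg libraries had 693, 1196 and 920 at 4 h, 1516, 1847 and 3298 at 12 h, and 485, 244 and 309 at 24 h. The replicate 3 libraries of 12 h were the highest at both doses, at 2.39 and 1.96 times the mean of the other 2. The log2 fold change at 12 h was 3.59 (SE 0.39) at both doses. Without both replicate 3 libraries of 12 h, an alternative chosen after the data were seen, it was 3.12 with 0.8 µg and 3.27 with 80 µg, and the call was kept. At 24 h it was 1.26 (adjusted p = 0.0047) and 1.02 (adjusted p = 0.0252). The latter call was lost when library totals replaced the size factors (0.79, adjusted p = 0.0641), with sex as a covariate (0.95, adjusted p = 0.032), with thinned counts (0.98, adjusted p = 0.0289), without any 1 of the 3 controls (0.92 to 0.99, adjusted p = 0.0546 to 0.0782) and without 24 h replicate 1 of 80 µg (0.74, adjusted p = 0.177). The call with 0.8 µg was lost without 24 h replicate 2 (0.98, adjusted p = 0.0661).

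Hspa8 rose by 2.38, 2.55 and 1.46 with 0.8 µg and by 2.24, 2.66 and 1.49 with 80 µg (SE 0.27 each). Its values at 12 h were 2.25 and 2.47 without both replicate 3 libraries of 12 h, and the calls were kept. Hspa9 rose by 2.81 and 2.93 at 4 h and 12 h with 0.8 µg and by 2.98 and 2.88 with 80 µg (SE 0.11 each). Hspa4 rose by 2.32, 2.52 and 1.28 with 0.8 µg and by 2.31, 2.56 and 1.12 with 80 µg (SE 0.11 each). The spread of Hspa8 between libraries was wider than that of Hspa9 or Hspa4, which the standard errors show.

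Hspa1a and Hspa1b encode the stress-inducible HSP70 and lie close together on chromosome 17 (34969190 to 34972156 and 34956436 to 34959238, both minus strand). They had 0 counts in the 3 controls. At 12 h Hspa1b had 9.8, 0.752 and 244 normalised counts with 0.8 µg and 3.65, 0.734 and 212 with 80 µg. Hspa1a had 0, 0 and 70.4, and 0.914, 0 and 53.5. In both genes and at both doses the replicate 3 library alone carried nearly all of the signal. In the 80 µg replicate 1 library of 24 h Hspa1a had 20.8 and Hspa1b 18.6, and elsewhere Hspa1a was at most 3.24 and Hspa1b at most 6.78.

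Against a floor of 3 counts in a control library, 3.47 normalised counts, Hspa1b at 12 h was at least 24.5-fold higher (0.8 µg) or at least 20.8-fold higher (80 µg). Hspa1a was at least 6.76-fold and 5.22-fold higher, with no test. Without replicate 3 the mean of Hspa1b was 5.28 with 0.8 µg and 2.19 with 80 µg, and that of Hspa1a was 0 and 0.457. Hspa1b was called at 12 h with both doses (adjusted p = 0.00132 and 0.00181). With both replicate 3 libraries left out the adjusted p was 0.0424 with 0.8 µg and 0.166 with 80 µg, so the call with 80 µg was lost. The call with 0.8 µg could not be checked without replicate 1, 2 or 3 of its own group alone, or with thinned counts. DESeq2 gave no adjusted p there, and the log2 fold changes were 2.94, 3.3, 1.23 and 2.86. Counting error alone limits what the near-zero libraries can show.

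Other members were also high in those 2 libraries. Dnajb1, which encodes HSP40, had 174, 187 and 511 normalised counts at 12 h with 0.8 µg and 202, 174 and 417 with 80 µg, against 124 to 169 in the controls. Replicate 3 was 2.83 and 2.22 times the mean of the others. For Dnaja1 the ratios were 1.71 and 2.28, and for Hspa8 1.79 and 1.49. Of 35 members with a mean of at least 20, 26 (74.3%) were higher in replicate 3 at both doses, with a median ratio of 1.19 with 0.8 µg and 1.11 with 80 µg, beside medians over all genes of 1 and 0.988.

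Among chaperone genes that were no members, named after their values were seen, Bag3 had 3.92, 6.77 and 91.6 normalised counts with 0.8 µg and 10, 5.87 and 68 with 80 µg at 12 h. Hspa4l had 94.1, 79 and 274, and 134, 114 and 265. The same 2 libraries were the high ones of the 12 h libraries in each, while the 4 h libraries had 256 to 353 of Hspa4l. Of 62 such genes with a mean of at least 20, 21 were higher in replicate 3 at both doses and 16 lower, and 2 (Hspa4l and Ahsa2) were over 2 times the mean of the others at both. By the Y-linked gene Ddx3y and by Xist, each of them came from a male mouse while the other 12 h libraries came from females. The 4 h replicate 3 libraries were also male and held at most 3.24 of Hspa1a and 0 of Hspa1b. Male too was the 80 µg replicate 1 library of 24 h, with 20.8 of Hspa1a and 18.6 of Hspa1b. The other male libraries were control replicate 1 and, at 24 h, replicates 2 and 3 of 0.8 µg and replicate 2 of 80 µg. They had at most 2.8 of Hspa1a and 3.73 of Hspa1b. The part of sex, or of handling of the cells, in the result was not tested.

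**Figure D3:**
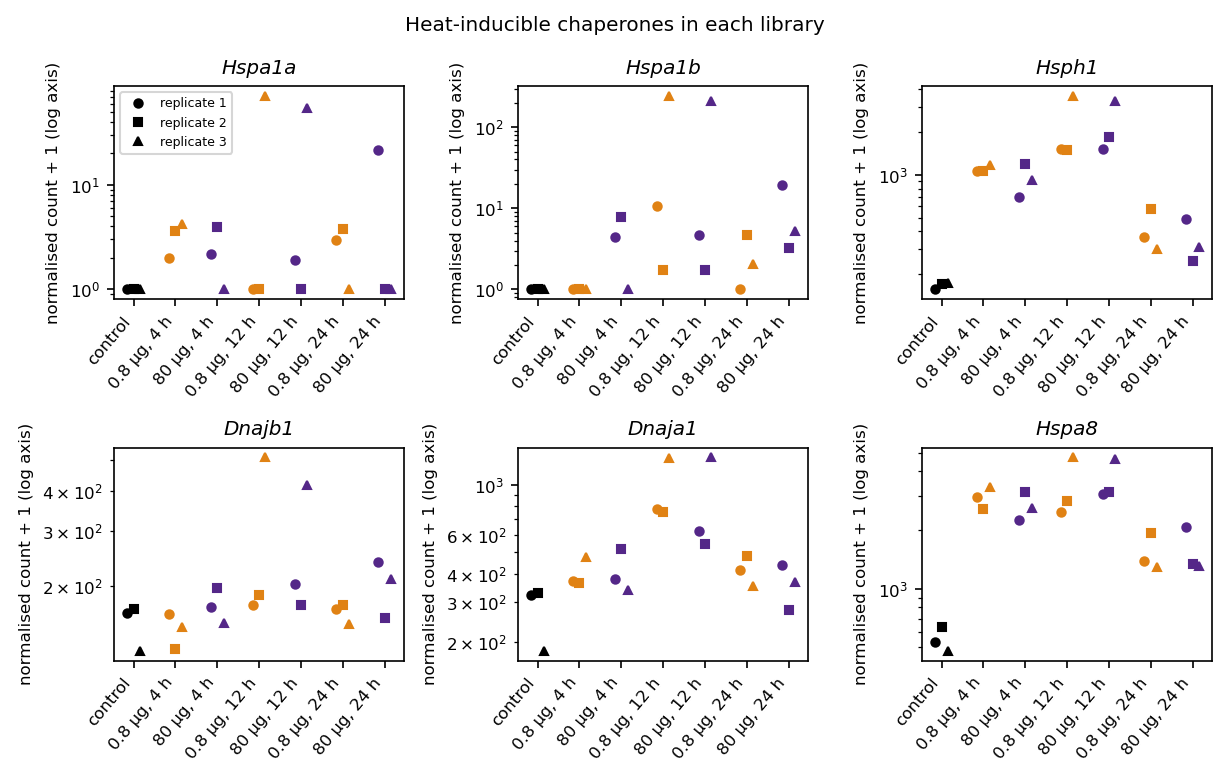
Normalised counts plus 1, on a log axis, of Hspa1a, Hspa1b, Hsph1, Dnajb1, Dnaja1 and Hspa8 in each library (points), by group. At 12 h the replicate 3 library of each dose is the highest point in every panel, with 244 and 212 normalised counts for Hspa1b.

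All 8 subunits of TRiC, the ring-shaped chaperonin of the cytosol, rose at 4 h and 12 h with both doses. At 24 h, 6 were called with 0.8 µg and 5 with 80 µg. The median log2 fold change of the subunits was 2.13, 2.43 and 1.02 with 0.8 µg and 2.14, 2.4 and 1.08 with 80 µg. The subunits moved within a limited range, from 1.26 (Cct4) to 2.42 (Cct6a) at 4 h with 0.8 µg and from 1.89 (Cct4) to 3.02 (Cct6a) at 12 h.

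Cct6a (chromosome 5, 129786998 to 129846371, plus strand) had the largest 12 h change of the subunits, while Tcp1 had the largest at 24 h. It had 345, 342 and 293 normalised counts in the controls. At 0.8 µg the values were 1643, 1859 and 1796 at 4 h, 2612, 2715 and 2717 at 12 h, and 773, 844 and 607 at 24 h. At 80 µg the values were 1829, 1974 and 1908, 2529, 2586 and 2676, and 695, 662 and 775. No 2 of the 3 times overlapped at either dose. The rise at 12 h was 8.13-fold with 0.8 µg (log2 3.02, SE 0.1, adjusted p = 1.48e-185) and 7.87-fold with 80 µg. Cct6a shares exon bases with Psph on the opposite strand.

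Tcp1, the founding subunit, rose by 2.22, 2.57 and 1.35 with 0.8 µg and by 2.15, 2.36 and 1.4 with 80 µg (SE 0.1 each). Cct2 rose by 1.37, 2.08 and 1.01 with 0.8 µg and by 1.63, 2.05 and 1.09 with 80 µg (SE 0.12 each). Cct5 rose by 2.16, 2.39 and 1.3, and by 2.13, 2.44 and 1.15 (SE 0.11 each). These 3 were called at every time, but the call of Cct2 at 24 h with 0.8 µg was lost without control replicate 3 (0.97), without 24 h replicate 1 (0.95) or 2 (0.97) of that dose, and with thinned counts (0.99). Cct7 rose by 1.88, 2.6 and 1.03 with 0.8 µg and by 2.17, 2.56 and 1.07 with 80 µg (SE 0.11 each). Cct8 rose by 2.09, 2.3 and 1.02 with 0.8 µg and by 2.1 and 2.29 at 4 h and 12 h with 80 µg (SE 0.09 each). Many subunits thus ended close to the 2-fold threshold at 24 h, and the values of those not called were 0.94 (Cct3) and 0.75 (Cct4) with 0.8 µg and 0.59 (Cct3), 0.84 (Cct4) and 0.88 (Cct8) with 80 µg. Cct3 and Cct4 rose by 2.39 and 1.26 at 4 h and by 2.46 and 1.89 at 12 h with 0.8 µg, and by 2.45, 1.58, 2.51 and 1.85 in the same order with 80 µg.

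Prefoldin, the hexamer that hands unfolded actin and tubulin to TRiC, did not move as a unit. Of its 6 subunits, 2, 5 and 1 rose at 4 h, 12 h and 24 h with 0.8 µg and 3, 4 and 2 with 80 µg. Pfdn4 and Pfdn2 rose at 4 h and 12 h but were not called at 24 h, Pfdn1 was called at 24 h with both doses, and Pfdn5 was lower than in the controls at 4 h and 12 h.

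Pfdn4 (chromosome 2, 170496428 to 170519123, plus strand) had 106, 95.3 and 87.1 normalised counts in the controls. The lower dose gave 365, 315 and 330 at 4 h, 387, 429 and 500 at 12 h, and 165, 159 and 141 at 24 h. The higher dose gave 456, 480 and 425, 479, 552 and 486, and 164, 141 and 129. All immunised libraries were above all controls. The log2 fold changes were 1.79, 2.16 and 0.67 with 0.8 µg and 2.22, 2.37 and 0.56 with 80 µg (SE 0.15 to 0.16), the last of each pair under the 2-fold threshold.

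Pfdn2 (chromosome 1, 171345670 to 171359254, plus strand) had 121, 96.3 and 151 normalised counts in the controls. With 0.8 µg it had 402, 408 and 458 at 4 h, 531, 446 and 491 at 12 h, and 114, 125 and 138 at 24 h. With 80 µg it had 484, 578 and 589, 398, 430 and 437, and 127, 98.6 and 142. The 24 h libraries fell back into the range of the controls, with log2 fold changes of 0.05 (SE 0.17) and 0.02 (SE 0.16). At 4 h and 12 h they were 1.79 and 2 with 0.8 µg and 2.17 and 1.79 with 80 µg.

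Pfdn5 (chromosome 15, 102326116 to 102331873, plus strand), also known as a partner of Myc, had 535, 664 and 604 normalised counts in the controls. The 0.8 µg libraries had 439, 408 and 439 at 4 h, 392, 434 and 450 at 12 h, and 508, 592 and 615 at 24 h. The 80 µg libraries had 429, 415 and 462, 283, 399 and 382, and 533, 575 and 484. Every library of 4 h and 12 h was below every control, and the 24 h libraries overlapped the controls. The log2 differences were -0.48, -0.5 and -0.07 with 0.8 µg and -0.46, -0.76 and -0.18 with 80 µg (SE 0.12 to 0.13). Those at 4 h and 12 h were significant (adjusted p from 9.87e-09 to 0.000591) but under the 2-fold threshold. Library totals in place of size factors shift the median of all genes by -0.16 at 4 h. Pfdn5 shares exon bases with Myg1 on the same strand.

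Pfdn1 rose by 1.51 (SE 0.18) and 1.44 (SE 0.18) at 12 h and 24 h with 0.8 µg and by 1.01, 1.85 and 1.28 with 80 µg, and stood at 0.81 at 4 h with 0.8 µg. Its call at 4 h with 80 µg was lost under library totals (0.86) and with thinned counts (0.86). It was also lost without control replicate 2 (0.88) or 4 h replicate 1 of 80 µg (0.99). Pfdn6 rose at 12 h with both doses (1.29 and 1.35, SE 0.23) and at 24 h with 80 µg (1.29). Vbp1, the subunit that binds the von Hippel-Lindau protein, rose at 12 h with 0.8 µg (1.08, SE 0.21) and otherwise lay between 0.5 and 0.95.

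**Figure D4:**
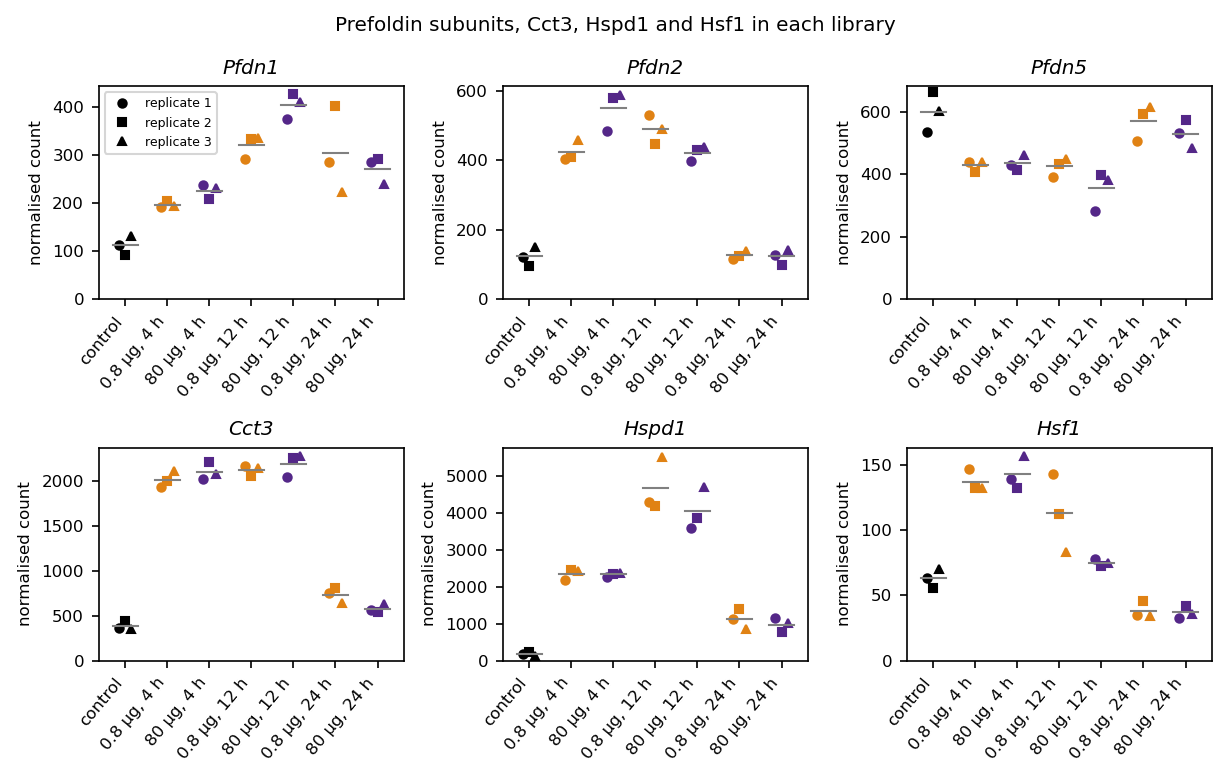
Normalised counts of Pfdn1, Pfdn2, Pfdn5, Cct3, Hspd1 and Hsf1 in each library (points), by group, with the group mean as a grey line. Pfdn2 returns to the control range at 24 h, Pfdn1 does not, Pfdn5 is lowest at 12 h with 80 µg, and Hsf1 at 24 h lies below the controls.

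The J-domain proteins, which bring clients to HSP70 and set off its ATPase, were mixed. Of 6, 2, 4 and 1 rose at 4 h, 12 h and 24 h with 0.8 µg and 3, 3 and 0 with 80 µg. Dnajc2, which sits at the ribosome with an HSP70 partner, was called higher in 5 of the 6 comparisons with control. It had 410, 513 and 384 normalised counts in the controls. At 0.8 µg the values were 1564, 1282 and 1369 at 4 h, 1485, 1385 and 1704 at 12 h, and 859, 1036 and 759 at 24 h. At 80 µg the values were 1732, 1474 and 1538, 1753, 1842 and 1857, and 951, 862 and 773. All immunised libraries were above the controls. Its log2 fold changes were 1.68, 1.79 and 1.01 with 0.8 µg and 1.85, 2.05 and 0.97 with 80 µg (SE 0.12 to 0.13).

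Dnaja2, a cytosolic partner of HSC70, rose by 1.36 and 1.42 at 4 h and 12 h with 0.8 µg and by 1.54 and 1.21 with 80 µg (SE 0.12 each). Dnaja1 rose at 12 h only among the 3 times (1.72 with 0.8 µg and 1.53 with 80 µg, SE 0.34). Without both replicate 3 libraries of 12 h these were 1.46 and 1.05, and the calls were kept. Dnaja3, the mitochondrial J-domain protein, rose at 12 h with 0.8 µg (1.23, SE 0.25) and at 4 h with 80 µg (1.06, SE 0.25), the latter call being lost under library totals (0.9). Dnajb1 and Dnajb6, which holds back aggregation of misfolded proteins, were not called. The log2 fold changes of Dnajb1 ranged from -0.07 to 0.89 (SE 0.37), the highest being 0.89 and 0.76 at 12 h, which were 0.24 and 0.29 without both replicate 3 libraries. Those of Dnajb6 ranged from -0.09 to 0.46 (SE 0.19).

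All 4 HSP90 co-chaperones rose at 4 h and 12 h with both doses. At 24 h, Stip1 and Ptges3 rose with both doses and Ahsa1 with 80 µg. Stip1, the adaptor between HSP70 and HSP90 (chromosome 19, 7020702 to 7039967, minus strand), had 139, 185 and 166 normalised counts in the controls. The lower dose gave 1035, 784 and 1026 at 4 h, 964, 1014 and 1641 at 12 h, and 436, 546 and 423 at 24 h. The higher dose gave 727, 925 and 836, 1113, 1478 and 1527, and 471, 374 and 460. Every immunised library was above every control. The log2 fold changes were 2.52, 2.86 and 1.51 with 0.8 µg and 2.32, 3.05 and 1.4 with 80 µg (SE 0.18 to 0.19). The values at 12 h were 2.59 and 2.98 without both replicate 3 libraries, and the calls were kept.

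Ahsa1, which speeds the ATPase of HSP90, rose by 2.13 and 2.69 at 4 h and 12 h with 0.8 µg and by 2.3, 2.71 and 1.08 with 80 µg (SE 0.22 to 0.23). Ptges3, the p23 protein that holds the closed form of HSP90, rose by 1.87, 2.37 and 1.26 with 0.8 µg and by 2.2, 2.52 and 1.05 with 80 µg (SE 0.14 to 0.15). Fkbp4, an immunophilin of steroid receptor complexes, rose by 2.02 and 2.58 with 0.8 µg and by 1.9 and 2.64 with 80 µg at 4 h and 12 h (SE 0.13 each). At 24 h Fkbp4 stood at 0.77 and 0.48, under the threshold.

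Hsf1 (chromosome 15, 76477422 to 76501913, plus strand) rose at 4 h with both doses and was below the controls at 24 h. It had 62.9, 55.8 and 70 normalised counts in the controls. With 0.8 µg it had 147, 132 and 132 at 4 h, 143, 112 and 83.4 at 12 h, and 35, 45.7 and 34.1 at 24 h. With 80 µg it had 139, 132 and 157, 77.7, 72.6 and 74.8, and 32.9, 41.9 and 35.7. The 4 h libraries were above and the 24 h libraries below all controls. The log2 fold changes were 1.12, 0.85 and -0.69 with 0.8 µg and 1.18, 0.26 and -0.74 with 80 µg (SE 0.22 to 0.24). Those at 24 h were significant (adjusted p = 0.0151 and 0.00643) but under the 2-fold threshold. Under library totals the call at 4 h with 0.8 µg was lost (0.96). With thinned counts the 4 h calls of both doses were lost (0.96 with 0.8 µg and 0.98 with 80 µg). At 12 h with 0.8 µg Hsf1 was called without both replicate 3 libraries (1.02, adjusted p = 3.3e-05).

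The doses were then compared at each time, to ask whether the higher peptide dose changed chaperone expression in cells sorted at the same Timer stage. None of the 35 members was called between 80 µg and 0.8 µg at 4 h, 12 h or 24 h by DESeq2, and none by edgeR. Among all genes tested, 80 µg gave 3.12% higher and 2.74% lower calls at 4 h, 1.83% and 0.96% at 12 h, and 0.89% and 0.673% at 24 h. At an unadjusted p under 0.05, 7 members differed at 4 h, all 7 higher with 80 µg. At 12 h 2 were higher and 3 lower, and at 24 h 1 was higher and 2 lower. By the same rule 21.4%, 16.9% and 17% of all genes differed, so the members' counts were near or below the share of all genes.

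The 95% interval of the dose difference lay within 2-fold for 32 of 35 members at 4 h, 33 at 12 h and 31 at 24 h. It reached further for Hspa1b at each time, for Hsph1 and Dnajb1 at 4 h and 24 h, for Hsf1 at 12 h and for Dnaja3 at 24 h. The median absolute log2 difference was 0.16, 0.12 and 0.14 for the members and 0.26, 0.23 and 0.21 over all genes. Hspd1, for example, differed by -0.01 (95% interval -0.43 to 0.41) at 4 h, -0.2 (-0.62 to 0.21) at 12 h and -0.2 (-0.63 to 0.22) at 24 h. Hsp90ab1 differed by -0.09 (-0.3 to 0.13), 0.1 (-0.12 to 0.31) and -0.01 (-0.22 to 0.21). For these genes a 2-fold dose difference lies outside the interval.

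By the adjusted p alone, 12% of all genes differed between doses at 4 h, 6.27% at 12 h and 5.93% at 24 h, and so did 1, 0 and 1 of the 35 members. At 4 h this was Pfdn4, with 365, 315 and 330 normalised counts at 0.8 µg and 456, 480 and 425 at 80 µg, a log2 difference of 0.43 (SE 0.13, adjusted p = 0.0104). At 24 h it was Cct3 (chromosome 3, 88297116 to 88321767, plus strand), with 751, 815 and 645 at 0.8 µg and 559, 538 and 632 at 80 µg, a difference of -0.35 (SE 0.1, adjusted p = 0.00794). In neither did the doses overlap. Over all alternatives the counts by this rule ranged from 0 to 6 at 4 h, 0 to 3 at 12 h and 0 to 4 at 24 h. The nearest others were Pfdn2 at 4 h (0.38, SE 0.14, adjusted p = 0.0502), Cct7 at 4 h (0.29, SE 0.1, adjusted p = 0.0514) and Hsf1 at 12 h (-0.59, SE 0.21, adjusted p = 0.0681).

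**Figure D5:**
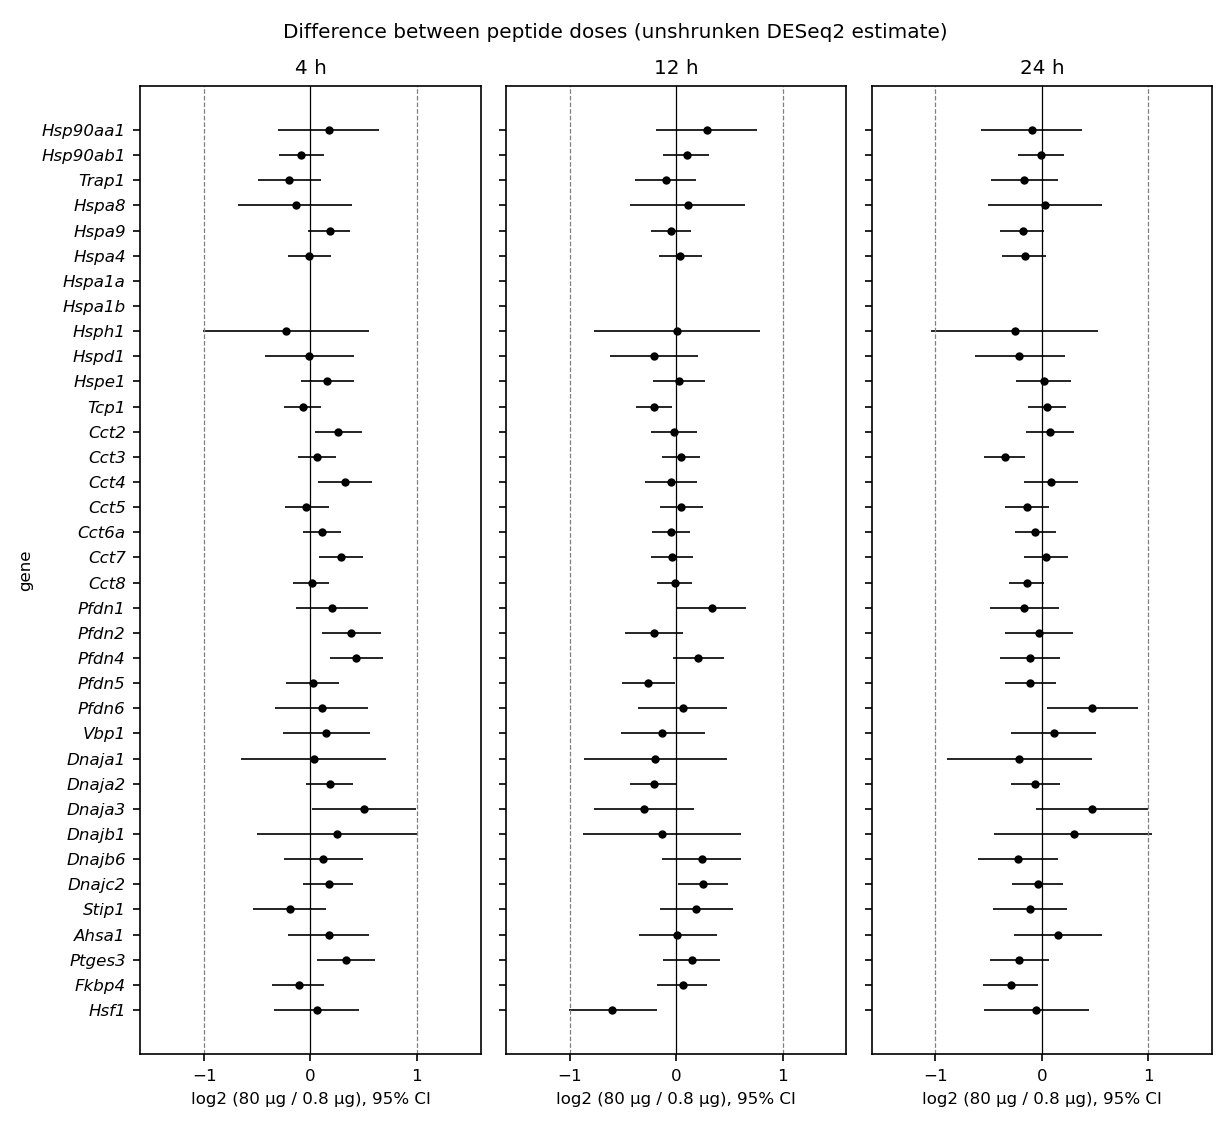
Log2 difference between 80 µg and 0.8 µg (points) with its 95% interval (bars) for 34 members at 4 h, 12 h and 24 h; Hspa1a and Hspa1b are left out because of their low counts. Dashed lines mark a 2-fold difference, and no point lies beyond them.

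A likelihood ratio test, run on the 18 samples from immunised mice, asked whether the dose difference itself changed with time. It passed for 10.4% of all genes and for 2 of the members, Cct3 (adjusted p = 0.0198) and Pfdn2 (adjusted p = 0.0456). At an unadjusted p under 0.05, 6 members passed in DESeq2, beside 21.5% of all genes, and 5 in edgeR, and after adjustment edgeR passed 0. The dose differences of Cct3 were 0.06, 0.05 and -0.35 at 4 h, 12 h and 24 h, and those of Pfdn2 were 0.38, -0.21 and -0.03. Cct3 had 1940, 2001 and 2119 normalised counts at 0.8 µg and 2023, 2212 and 2086 at 80 µg at 4 h, so that only the 24 h doses were apart.

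Between times, at fixed dose, few members rose from 4 h to 12 h by 2-fold and most fell from 12 h to 24 h. With 0.8 µg, Hspa1b, Hspe1 and Dnaja1 rose from 4 h to 12 h (3 of 35, beside 12.6% of all genes). With 80 µg, Hsph1 and Hspe1 rose (2 of 35, beside 15.7%). None fell, beside 7.98% and 9.1% of all genes. At an unadjusted p under 0.05, 0 members with 0.8 µg and 4 with 80 µg were lower at 12 h, beside 21.3% and 22.3% of all genes, and edgeR called 0 lower at either dose. Without both replicate 3 libraries of 12 h only Hspe1 was called at either dose. With all libraries the differences of Hspe1 were 1.26 (SE 0.13) with 0.8 µg and 1.14 (SE 0.13) with 80 µg.

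By the adjusted p alone, 21 members were higher at 12 h than at 4 h with 0.8 µg and 0 lower, and with 80 µg 16 were higher and 4 lower. Over all genes, 20.9% were higher and 18.2% lower with 0.8 µg, and 23.6% and 19.3% with 80 µg. The 4 lower ones were Pfdn2 (-0.38, adjusted p = 0.0147), Pfdn5 (-0.29, adjusted p = 0.0483), Dnaja2 (-0.34, adjusted p = 0.00754) and Hsf1 (-0.92, adjusted p = 4.8e-05). Hspd1 was higher by 0.98 and 0.79 and Hsp90ab1 by 0.52 and 0.71.

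From 12 h to 24 h, 26 of 35 members fell with 0.8 µg and 23 with 80 µg, beside 9.48% and 10.5% of all genes. None rose by 2-fold, beside 17.1% and 16.7%. Pfdn5 was higher at 24 h by the adjusted p alone (0.43, adjusted p = 0.00217, and 0.58, adjusted p = 1.91e-05). At an unadjusted p under 0.05 it was the 1 member that was higher at either dose, beside 28.5% and 28.2% of all genes, and edgeR called 0 higher. Without both replicate 3 libraries of 12 h, 22 and 21 members fell. Hspa8 was among those lost, at -1.1 and -1.17 with all libraries and -0.77 and -0.96 without these.

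All 8 TRiC subunits fell with 0.8 µg and 6 with 80 µg, as did all 4 HSP90 co-chaperones and both chaperonin genes at either dose. Hspd1 fell by 2.03 on the log2 scale at both doses (SE 0.21), Fkbp4 fell by 1.81 and 2.16 (SE 0.12), Hspa9 fell by 1.84 and 1.97 (SE 0.1) and Hsph1 fell by 2.33 and 2.58 (SE 0.38). Pfdn1, Pfdn6, Vbp1, Dnaja2, Dnajb1, Dnajb6 and Trap1 were not called at either dose. Hsf1 fell by 1.54 (SE 0.23) and 1 (SE 0.23).

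Chaperone genes outside the members were taken from lists of further J-domain proteins, TRiC and prefoldin partners, co-chaperones of HSP90 and HSP70, mitochondrial import and protease genes, heat shock factors, nucleotide exchange factors and small heat shock proteins. Of 78 listed, 74 passed the count filter. With 0.8 µg, 30 of 70 tested rose and 6 fell at 4 h, 24 rose and 3 fell at 12 h, and 8 rose and 1 fell at 24 h. With 80 µg, 28 of 70 rose and 6 fell at 4 h, 25 of 72 rose and 3 fell at 12 h, and 7 of 70 rose and 3 fell at 24 h. Over all genes, 17.3% and 17.2% were higher and 23.4% and 20.5% lower at 4 h and 12 h with 0.8 µg. With 80 µg, 18.4% and 17.8% were higher and 25.1% and 20.1% lower. At 24 h the counts called higher lay near or below the 11.5% and 12.3% of all genes. The counts called lower at 24 h lay below the 5.84% and 7.91% of all genes. The difference between these genes and the members was not tested.

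Cacybp, a partner of HSP90, had 200, 236 and 221 normalised counts in the controls and 1615, 1621 and 2101 at 12 h with 80 µg, a log2 rise of 3 (SE 0.18). Bag2, which ejects nucleotide from HSP70, had 3.09, 5.07 and 0 in the controls and 48, 38.4 and 47 at 12 h with 0.8 µg. Sugt1, another HSP90 partner, had 278, 356 and 351 in the controls and 109, 137 and 126 at 4 h with 0.8 µg, a log2 fall of -1.4 (SE 0.16). Larger falls were seen at low counts. Hspb6, a small heat shock protein, had 5.15, 10.1 and 17.1 in the controls and 0 in all 3 libraries of 80 µg at 4 h, and the J-domain gene Dnajc28 had 10.3, 12.2 and 12.8 in the controls and 0, 0.734 and 0 at 12 h with 80 µg. The remaining largest changes of each list were rises of 2.57 (Dnajc27), 1.66 (Hsf2), 1.72 (Hspa4l) and 1.37 (Pdrg1) at 4 h with 0.8 µg and of 1.82 (Pam16) at 12 h with 80 µg, and the fall of Pdcl at 4 h with 0.8 µg (-1.07).

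Between doses, 0 of 66 of these genes were called at 4 h and 0 of 67 at 12 h. By the adjusted p alone, Cdc37 (-0.51), Clpb (-0.6) and Dnajb4 (-0.98) were lower with 80 µg at 4 h and Fkbp5 (-0.95) at 12 h, and none was higher. At 24 h 1 was higher and 2 lower by this rule. The shares of all genes, either way, were 12%, 6.27% and 5.93%. By the 2-fold rule 2 of 65 were called at 24 h, 1 higher and 1 lower, beside 0.89% and 0.673% of all genes. Dnajc15, a J-domain protein of the mitochondrial inner membrane, had 268, 282 and 178 normalised counts with 0.8 µg and 513, 511 and 464 with 80 µg. Its log2 difference was 1.02 (SE 0.15, adjusted p = 1.16e-08), just past the 2-fold threshold. Dnajb14, a J-domain protein of the endoplasmic reticulum, had 64.2, 57.8 and 85.7 with 0.8 µg and 25.2, 19.1 and 44.4 with 80 µg, a difference of -1.17 (SE 0.32, adjusted p = 0.00815).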

How the data were processed

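The 21 samples of sorted CD4+ T cells were profiled with QuantSeq forward libraries, which read the 3′ ends of mRNA. The raw counts per gene were made by the authors, who trimmed reads with Bbduk, aligned them with STAR 2.5.2a (version per the labels) to GRCm38 and counted with HTSeq. The annotation release and strand setting are not given in the sources used here. The deposited rlog values are on a log2 scale, made by the authors with DESeq2. They were used for names and the heat map, and the counts were used for all tests. Because a 3′ library gives about a single read site per transcript, values were not divided by length.

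Samples were grouped by the labels. DESeq2 1.42.0 in R 4.3.3 was fitted to all 21 samples with a coefficient per group, after a filter of at least 10 counts over all samples. DESeq2's normal prior was used to shrink the log2 fold changes. Calls needed a Benjamini-Hochberg adjusted p under 0.05 over all genes and an absolute shrunken log2 fold change over 1. The adjusted p alone was a second rule. The 13 comparisons were 3 of dose, 6 with control and 4 of time. Dose by time was tested by a likelihood ratio test of the 18 samples from immunised mice. Depth is given with the results, and the floor of 3 counts per library covers counting error only. Scripts were tested on simulated data.

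Alternatives were edgeR 4.0.16, library totals, other count filters, thinned counts, unshrunken values, the compared samples alone, the replicate number as a block, each library left out, Hspa1a and Hspa1b summed, and, added after seeing the data, both replicate 3 libraries of 12 h left out and sex inferred from Xist and Ddx3y as a covariate. The members and the lists were chosen with earlier results of these data known. Every member was named with a value. Values in every library were printed for the member with the largest change in each class, members called between doses, members with the lowest level and, beyond this rule, Hspa1b, Dnajb1, Pfdn2, Pfdn5 and Cct3, chosen after their values were seen. Genes outside the members came from the lists by the largest change or a dose call, or, as stated there, after their values were seen. Promoter windows are from RefSeq (GRCm38.p6) and locations from GENCODE on GRCm38, counted from 1.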

Additional observations from a re-analysis of the deposited data

Results flagged for a closer look

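The dose difference changed with time in 2 chaperone genes by the likelihood ratio test of DESeq2, while 10.4% of all genes passed that test, so the count is no result about the chaperones. For Cct3, a TRiC subunit, the adjusted p was 0.0198, with dose differences of 0.06, 0.05 and -0.35 on the log2 scale at 4 h, 12 h and 24 h, and at 24 h all 3 libraries of 80 µg were below all 3 of 0.8 µg. For Pfdn2, a prefoldin subunit, the adjusted p was 0.0456, with dose differences of 0.38, -0.21 and -0.03, and all 3 libraries of 80 µg were above those of 0.8 µg at 4 h and below them at 12 h. With edgeR the adjusted p was 0.152 for Cct3 and 0.114 for Pfdn2. The samples available test no cause for either.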

How the results depend on the processing

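Of 203 calls of single members in the 13 comparisons, 168 were kept under every alternative run and 35 were lost under at least 1, and 0 values changed sign. Where DESeq2 gave Hspa1b no adjusted p, that setting was not counted. With library totals as size factors, 9 members were called at 24 h with 80 µg against control in place of 17, 7 in place of 14 in all 6 comparisons with control, 6 in place of 3 from 4 h to 12 h with 0.8 µg, and 4 in place of 2 for dose by time. That scaling shifted the median of all genes by -0.16 at 4 h against control at both doses, -0.13 and -0.24 at 24 h (0.8 µg and 80 µg), 0.16 and 0.13 from 4 h to 12 h, and -0.14 and -0.21 from 12 h to 24 h. With both replicate 3 libraries of 12 h left out, 1 member was called from 4 h to 12 h at either dose and 4 for dose by time. The dose by time count was 0 with edgeR and 1 with sex as a covariate, with the stricter filter and with thinned counts; the cause was not tested. Leaving out each library in turn gave 1 to 5 members from 4 h to 12 h with 0.8 µg (1 without 12 h replicate 3, 5 without 12 h replicate 1 or 2), 1 to 3 with 80 µg (1 without 12 h replicate 3), and 0 to 5 for dose by time (0 without 24 h replicate 2 of 0.8 µg or 24 h replicate 1 of 80 µg, 5 without 24 h replicate 3 of 0.8 µg). It gave 0 for each dose comparison, 26 to 27, 30 to 32 and 14 to 21 against control with 0.8 µg, 27 to 29, 28 to 30 and 14 to 18 with 80 µg, 21 to 27 and 21 to 25 from 12 h to 24 h, and 11 to 16 higher in all 6 comparisons with control. Hsf1 was called lower at 24 h with 0.8 µg in 1 setting, thinned counts (-1.1, adjusted p = 0.000842).

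Same-numbered samples of the 2 doses correlated at 0.03, -0.01 and 0.15 at 4 h, 0.14, -0.04 and 0.21 at 12 h, and -0.1, 0.03 and -0.11 at 24 h, so not every pair was above 0.1 and the samples were treated as sharing only a number. The replicate 3 libraries of both doses were of the same sex at 4 h and at 12 h. With the replicate block, 2 members again passed for dose by time (Cct3, adjusted p = 0.0361, and Pfdn2, adjusted p = 0.0482), and 2 single calls were lost, Hspa1b from 12 h to 24 h with 0.8 µg (adjusted p = 0.106) and Hsf1 from 12 h to 24 h with 80 µg (-1). Depth limits Hspa1a and Hspa1b most, which were at or near 0 counts in most libraries.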
